A study of Rattus norvegicus with 8 samples.

Results

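CRH and the peptides of hippocampal neurons were examined in a set of 10 genes picked by name, out of 13272 gene symbols in the deposited table. Crh, Crhr1 and Crhbp encode corticotropin-releasing hormone (CRH), its main brain receptor and its binding protein, and Sst, Npy, Vip, Cck, Penk, Pdyn and Tac1 encode the precursors of peptide transmitters. A row was found for 9 of the 10 genes, and the level of Npy was not analysed here. These 9 genes had 11 transcript rows among 16266, since Penk and Tac1 had 2 rows each.

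The hippocampi sequenced came from 8 rats, of which 4 received a vehicle and 4 received corticosterone (CORT). All 8 rats had been adrenalectomized, so neither group made its own adrenal corticosterone, and both had recovered on a drinking solution with a low level of corticosterone that was exchanged for saline before the experiment. The vehicle group received 0.45% saline and the CORT group 0.75 mg/mL of a corticosterone and 2-hydroxypropyl-beta-cyclodextrin complex in that saline, infused into the jugular vein for 30 min from zeitgeber time (ZT) 2, and hippocampi were taken 2 h after the infusion began. The labels give Sprague-Dawley rats of 3 to 4 months, whereas the study's methods name another strain, Lister Hooded, and a younger age. The deposited table holds 1 FPKM value for each group and transcript, that is, a fragment number normalized to transcript length and sequencing depth, made by the authors from the 4 rats of a group. No value for a single rat was used, so the spread between rats is unknown here, no test was run, and every difference below is a description of a pair of group values. The number of reads behind each value is likewise unknown. In such bulk tissue, fewer cells of a type and less RNA per cell cannot be told apart.

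As background, most neuropeptides of the hippocampus come from GABAergic interneurons, several classes of which are known by the peptide they make. Peptides are cut from precursors, stored in dense-core granules and act on G-protein-coupled receptors. CRH starts the pituitary and adrenal response to stress from the hypothalamus, where corticosterone restrains it, and it is also made by hippocampal interneurons. Granule cells of the dentate gyrus make opioid peptides from Pdyn and Penk.

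The highest of these transcripts were Sst and Cck, and the lowest genes were Crh and Crhr1. In the vehicle group, Sst was at 151 FPKM, above 96.6% of all transcripts, and Cck at 148 FPKM. Pdyn was at 33.5 FPKM, the main Penk transcript at 20.6 FPKM and Vip at 9.22 FPKM. Crhbp was at 6.32 FPKM, the main Tac1 transcript at 6.06 FPKM, Crhr1 at 1.499 FPKM and Crh at 1.07 FPKM, which only 6.05% of all transcripts lay below. With the transcripts of a gene summed, Sst and Cck made up 39.6% and 38.7% of the FPKM of the 9 genes in the vehicle group, and 41.7% and 38.1% in the CORT group. The order of the summed levels was the same in both groups for Sst, Cck, Pdyn, Penk and Vip, while Crhbp passed Tac1, and Crh passed Crhr1, in the CORT group. Whether these neighbours in the order differ beyond the spread between rats cannot be told from group values.

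**Figure D1:**
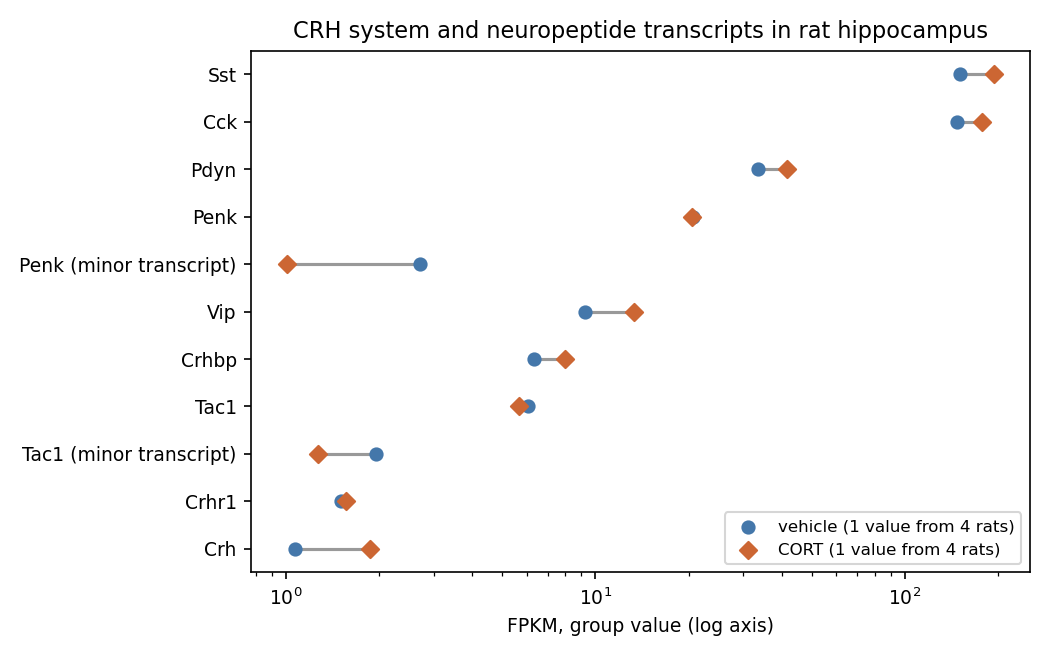
FPKM of the 11 transcript rows of the 9 genes on a log axis, with 1 value from 4 rats for the vehicle group (circles) and for the CORT group (diamonds), joined by a line. Sst and Cck stand above all others in both groups, Crh moves from 1.07 to 1.87 FPKM, and the minor transcripts of Penk and Tac1 are lower in the CORT group.

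Each gene was taken by its transcript with the highest level. Of the 9 genes, 7 had a higher FPKM in the CORT group and 2, Penk and Tac1, a lower one, and Crhr1 joined the lower ones only when ratios were centred on the interneuron genes described further on. Among the 12988 genes with at least 1 FPKM in one group, 54.6% were higher in the CORT group. The median log2 ratio of CORT over vehicle was 0.31 for the 9 genes, beside 0.019 for those 12988 genes. Only 1 of the 9, Crh, was past a 1.5-fold difference, where 5.51% of those genes were. Over the 11 transcript rows the median log2 ratio was 0.27, and 3 rows were past 1.5-fold: Crh on the higher side, and the minor transcripts of Penk and Tac1 on the lower side. Past that fold lay 9.12% of all transcripts, 4.21% higher and 4.91% lower in the CORT group.

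The spread of ratios over all transcripts was wider at low levels. Of transcripts with a mean of 1 to 10 FPKM, 11.6% were past 1.5-fold, against 2.38% of those between 10 and 100 FPKM and 3.14% of those at 100 FPKM or more. The central 90% of log2 ratios, from the lowest 5% to the highest 5%, ran from -0.67 to 0.61 at 1 to 10 FPKM, from -0.24 to 0.29 at 10 to 100 FPKM, and from -0.25 to 0.23 at 100 FPKM or more. Sst and Cck lay above the range of their level, as did Pdyn and Vip. Vip, with a mean of 11.3 FPKM, was just past the edge at 10 FPKM. Its log2 ratio of 0.53 would be inside the range at 1 to 10 FPKM. Crh also lay above the range at its level, the minor Penk transcript lay below it, and the other 5 rows were inside. These ranges are over transcripts, which are not replicates, and do not say how far rats of a group differ.

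**Figure D2:**
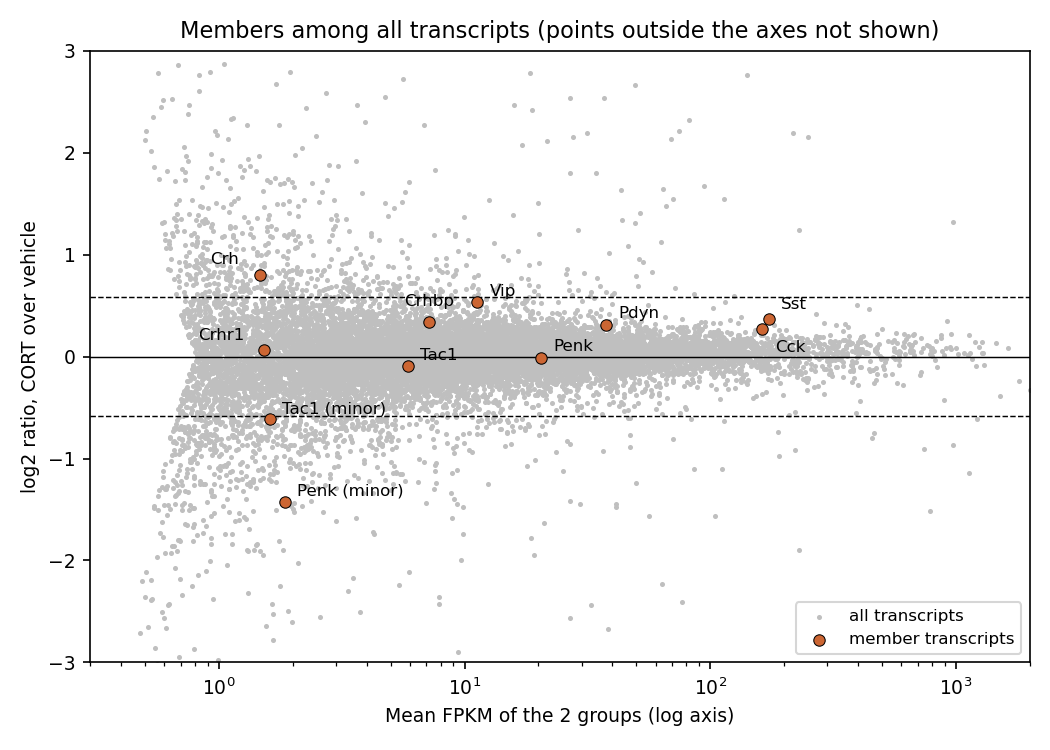
Log2 ratio of CORT over vehicle FPKM against the mean FPKM of the groups (log axis) for all transcripts (grey) and the 11 member transcripts (orange), with dashed lines at 1.5-fold either way. Crh is the only member above the upper line, and Sst and Cck lie at the upper edge of a narrow band at high FPKM.

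Crh, the peptide that starts the hormonal stress response, was at 1.07 FPKM in vehicle rats and 1.87 FPKM in CORT rats. This was 1.75-fold higher, a log2 ratio of 0.81, and the largest ratio among the 9 genes on this scale. The difference was 0.798 FPKM, and with a pseudocount of 1 FPKM added to both groups the log2 ratio of Crh was 0.47, under the 1.5-fold threshold. The gene lies on chromosome 2 of rn6 between 104459998 and 104461863. Crhbp, which binds CRH and keeps it from its receptors, was at 6.32 FPKM in vehicle rats and 7.99 FPKM in CORT rats, 1.26-fold higher, from a locus on chromosome 2 between 25141470 and 25153334. Crhr1, the receptor through which CRH excites hippocampal neurons, was at 1.499 and 1.56 FPKM, a log2 ratio of 0.060, from a locus on chromosome 10 between 92191717 and 92232645. By RNA level, Crhbp stood above Crh in both groups, at 5.92 times the FPKM of Crh with vehicle and 4.28 times with CORT. Crhr1 stood at 1.40 and 0.838 times the FPKM of Crh. The amounts of the peptide and the proteins were not measured. Crhr2, the other CRH receptor, was at 1.32 FPKM in vehicle rats and 1.55 FPKM in CORT rats.

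Sst, the precursor of somatostatin, marks interneurons that contact dendrites. It was at 151 FPKM in vehicle rats and 195 FPKM in CORT rats, 1.29-fold higher, a log2 ratio of 0.37. The difference of 43.9 FPKM was the largest difference in FPKM among the 9 genes. Its locus is on chromosome 11 of rn6 between 80358210 and 80359444. Cck, the precursor of cholecystokinin, is made by a class of basket cells and at lower levels by other neurons. It was at 148 FPKM in vehicle rats and 178 FPKM in CORT rats, 1.21-fold higher, a log2 ratio of 0.27. Its locus is on chromosome 8 between 130120522 and 130127392. Sst and Cck thus stood close to each other in both groups, with Sst at 1.02 times Cck with vehicle and 1.09 times with CORT.

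Vip, the precursor of vasoactive intestinal peptide, marks interneurons that mostly contact other interneurons. It was at 9.22 FPKM in vehicle rats and 13.4 FPKM in CORT rats, 1.45-fold higher, a log2 ratio of 0.53. After that of Crh, this was the largest ratio of the 9 genes, and it was under the 1.5-fold threshold. Its locus is on chromosome 1 between 42169500 and 42177579. Sst stood at 16.4 times the FPKM of Vip with vehicle and 14.6 times with CORT.

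The opioid precursors differed from each other. Pdyn, the precursor of dynorphins, was at 33.5 FPKM in vehicle rats and 41.6 FPKM in CORT rats, 1.24-fold higher, a log2 ratio of 0.31, from a locus on chromosome 3 between 122194328 and 122206671. Penk, the precursor of enkephalins, was at 20.6 and 20.5 FPKM by its main transcript (ENSRNOT00000011892.7), a log2 ratio of -0.011. Its minor transcript (ENSRNOT00000089318.1), placed at the same locus on chromosome 5 between 17056418 and 17061837, was at 2.70 FPKM in vehicle rats and 1.00 FPKM in CORT rats, a log2 ratio of -1.43. The minor transcript made up 11.6% of the FPKM of Penk with vehicle and 4.68% with CORT, and with both summed Penk was at 23.3 and 21.5 FPKM. Reads shared by overlapping transcripts are divided between them by an estimate, so a minor transcript is less certain than the sum. Pdyn stood at 1.44 times the summed FPKM of Penk with vehicle and 1.94 times with CORT.

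Tac1, the precursor of substance P and neurokinin A, was lower with CORT by both of its transcripts. The main one (ENSRNOT00000034719.4) was at 6.06 FPKM in vehicle rats and 5.68 FPKM in CORT rats, a log2 ratio of -0.093. The minor one (ENSRNOT00000052333.2), at the same locus on chromosome 4 between 33638708 and 33646819, was at 1.95 and 1.27 FPKM, a log2 ratio of -0.62. With both summed, Tac1 was at 8.004 FPKM in vehicle rats and 6.95 FPKM in CORT rats. Medial habenular neurons, which lie beside the hippocampus, also make substance P, so markers of that region are given further on.

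Several peptide genes, Sst among them, are textbook targets of the cAMP response element, to which CREB binds, and glucocorticoid receptors bind sites built from the letters AGAACA. Both were looked for on both strands of the promoter windows that RefSeq's GRCr8 build gives for 7 of the 10 genes, from 250 bases before to 50 bases after the annotated start. Entries for Crh, Cck and Penk were missing, and Npy, which has no level here, was among the 7. The core TGACG was in the windows of 4 of the 7, Sst, Vip, Crhbp and Tac1, and in 21.96% of the 27457 genes with a window. The whole element, TGACGTCA, in which the core is read on both strands, was in that of Sst, and in 1.91% of all genes. AGAACA was in none of the 7 windows and in 20.1% of all genes, which says only that these letters are not in these windows. The TATA box letters TATAAA were in 3 of the 7, Crhbp, Pdyn and Vip, and in 14.3% of all genes. All 4 matches are shown. Of these genes, Sst, Vip and Crhbp were higher with CORT and Tac1 was not. Pdyn and Crhr1, whose windows lacked the core, were higher with CORT as well. A match is no evidence of use. Each stretch of 30 bases is read along the gene, and capitals mark the core on either strand (CGTCA where it is on the opposite one). The match lies just after the annotated start in Sst, and begins 97 bases before it in Vip, 100 bases before it in Crhbp and 206 bases before it in Tac1.
Sst, chr11:90461537-90461566, plus strand: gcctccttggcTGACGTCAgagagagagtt
Vip, chr1:44470370-44470399, plus strand: gggatcaccactgTGACGtctttcgaggag
Crhbp, chr2:28439530-28439559, minus strand: agagctggaccctCGTCAtcgccacgcatt
Tac1, chr4:36645364-36645393, plus strand: ttccctaaaattgCGTCAtttcgaacccaa

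Receptors of these peptide families were mostly higher in the CORT group too. Of 23 listed receptors, 15 had a row and 14 had at least 1 FPKM in one group, with a median log2 ratio of 0.24. Of these 14, 12 were higher with CORT and 2, Vipr1 and Vipr2, lower, and 1 was past 1.5-fold, where 1.86% of the genes at this level were on the higher side. That one was Tacr3, the neurokinin B receptor, at 1.31 FPKM in vehicle rats and 1.97 FPKM in CORT rats, a log2 ratio of 0.59 that was 0.36 with a pseudocount of 1 FPKM. All 4 somatostatin receptors with a row were higher. Sstr4, the highest of them, was at 9.91 and 12.7 FPKM, and Sstr1 at 6.29 and 7.91 FPKM. The cholecystokinin receptor Cckbr was at 3.66 FPKM in vehicle rats and 4.14 FPKM in CORT rats. Vipr2 was at 1.23 FPKM in vehicle rats and 0.888 FPKM in CORT rats, and Vipr1 at 1.02 and 0.722 FPKM, opposite in direction to Vip. Both were near 1 FPKM, and neither was past 1.5-fold. Their log2 ratios, -0.47 for Vipr2 and -0.50 for Vipr1, were -0.24 and -0.23 with a pseudocount of 1 FPKM. Adcyap1r1, a receptor that binds the related peptide PACAP more tightly than VIP, was at 25.1 and 28.3 FPKM. Npy2r, a presynaptic receptor for neuropeptide Y, was at 6.54 and 7.48 FPKM. Of the opioid family only Oprl1, the nociceptin receptor, had a row, at 7.31 FPKM in vehicle rats and 9.92 FPKM in CORT rats. The missing rows do not show that the other opioid receptors were not expressed.

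**Figure D3:**
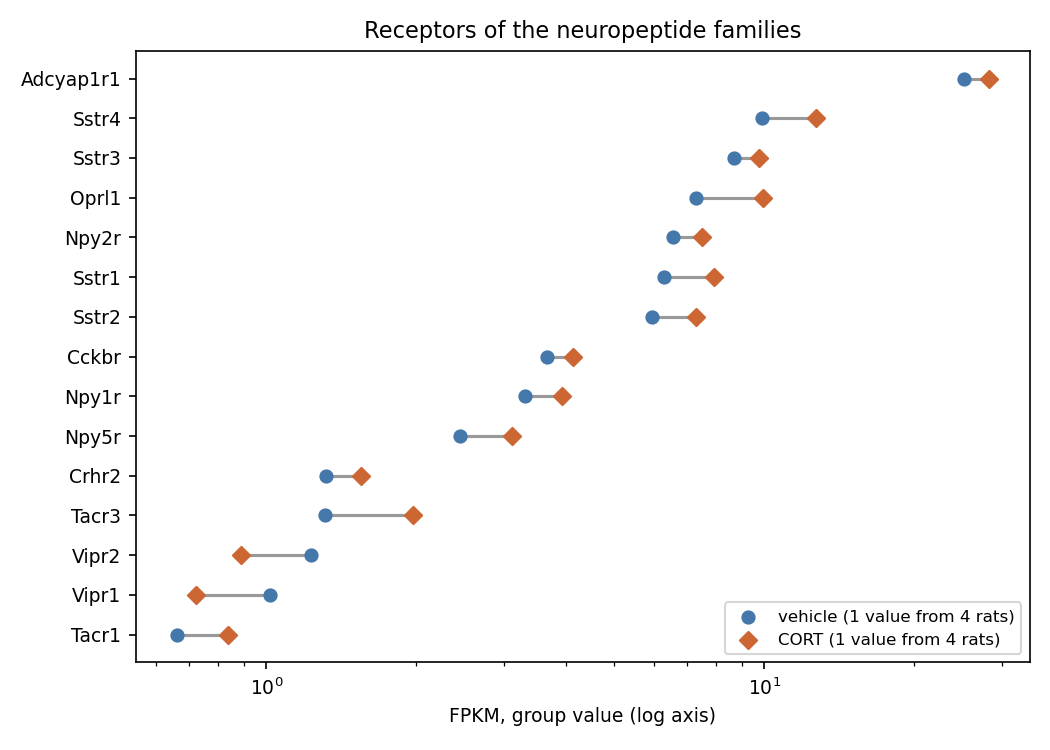
FPKM on a log axis of the 15 receptors with a row, 1 transcript per gene, with 1 value from 4 rats for the vehicle group (circles) and for the CORT group (diamonds). All but Vipr1 and Vipr2 are higher in the CORT group, and 1 of those with at least 1 FPKM, Tacr3, is past 1.5-fold.

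Ratios were smaller for genes that process peptides. Of the 19 with at least 1 FPKM, none was past 1.5-fold and 17 were higher with CORT, with a median log2 ratio of 0.12. Of the 19, 14 were higher after centring on the median of transcripts with at least 1 FPKM in one group. Cpe, the carboxypeptidase that trims precursors, was at 1280.4 FPKM in vehicle rats and 1310 FPKM in CORT rats, and the granule protein Chgb was at 356 and 364 FPKM. Scg5, a chaperone of the convertase Pcsk2, was at 382 and 430.3 FPKM. Precursors of other peptides were split, 11 higher and 8 lower of 19, with a median log2 ratio of 0.058. Past 1.5-fold were Calca on the higher side and Pomc, Ghrl and Trh on the lower side. Of all genes with at least 1 FPKM in one group, 1.86% were past it on the higher side and 3.66% on the lower side. Pomc, the precursor of ACTH and beta-endorphin, was at 6.17 FPKM in vehicle rats and 3.65 FPKM in CORT rats. The other 3 were under 1.4 FPKM in both groups. With a pseudocount of 1 FPKM, Pomc was still past the threshold, at a log2 ratio of -0.62. Calca, Ghrl and Trh were under it, at 0.30, -0.28 and -0.30. Nts, the precursor of neurotensin and the highest of this list, was at 49.7 and 46.4 FPKM.

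Most genes of interneuron identity were higher with CORT, and their median log2 ratio was near the 0.31 of the 9 genes. Single genes of the 9 lay further from it, with Crh and Vip above and Penk and Tac1 lower with CORT. All 32 listed had at least 1 FPKM, 28 were higher with CORT, and the median log2 ratio was 0.24. Summed over the list, the level was 716 FPKM in vehicle rats and 800.2 FPKM in CORT rats. The 4 that were lower were Id2, Lamp5, Calb2 and Maf. Lhx6, a transcription factor of interneurons that include the Sst class, was the 1 gene of the 32 past 1.5-fold. On the higher side, 1.86% of genes with at least 1 FPKM were past it. Lhx6 was at 1.05 FPKM in vehicle rats and 1.84 FPKM in CORT rats. With a pseudocount of 1 FPKM its log2 ratio was 0.47, under the threshold. Pvalb, the calcium-binding protein of fast-spiking basket cells, was at 138 and 165 FPKM, a log2 ratio of 0.26. The GABA-synthesizing enzymes Gad1 and Gad2 and the vesicular transporter Slc32a1, named after their values were seen, had log2 ratios of 0.26, 0.24 and 0.33. Relative to the median of this list, the log2 ratio was 0.12 for Sst, 0.028 for Cck, 0.069 for Pdyn, 0.29 for Vip and 0.56 for Crh, which is under the 1.5-fold threshold, and it was -0.26 for the main Penk and -0.34 for the main Tac1 transcript. Genes of hippocampal principal neurons had a median log2 ratio of 0.028 over 14 genes, 8 higher and 6 lower, with none past 1.5-fold. Centred on the median of transcripts with at least 1 FPKM in one group, 7 were higher. Centred on the interneuron list, 1 was higher, Crym. Slc17a7, the glutamate transporter of their vesicles, was at 736 FPKM in vehicle rats and 794 FPKM in CORT rats, and Camk2a at 593 and 667 FPKM. Crym, a thyroid hormone-binding protein, was at 231 FPKM in vehicle rats and 309 FPKM in CORT rats, the largest log2 ratio of this list at 0.42.

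**Figure D4:**
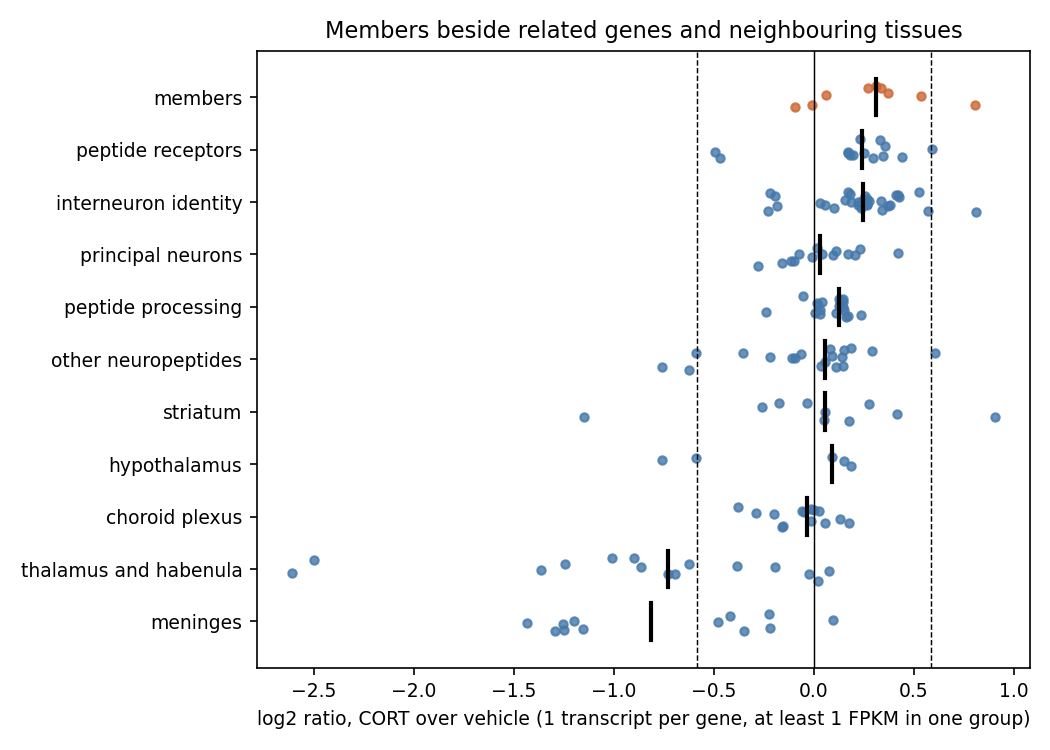
Log2 ratio of CORT over vehicle FPKM for each gene with at least 1 FPKM in one group, 1 transcript per gene, by list, with a black bar at the median and dashed lines at 1.5-fold either way. The members, receptors and interneuron genes have medians of 0.31, 0.24 and 0.24, and the thalamic and habenular and the meningeal genes have medians of -0.73 and -0.82.

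Markers of tissue beside the hippocampus differed between the groups as well. Of 15 thalamic and habenular genes with at least 1 FPKM, 10 were past 1.5-fold on the lower side and none on the higher side, where 3.66% and 1.86% of genes at this level were, and the list's sum was 147 FPKM in vehicle rats and 111 FPKM in CORT rats. Chrna3 and Gpr151, both typical of the habenula, were at 3.40 and 3.24 FPKM with vehicle and 0.557 and 0.573 FPKM with CORT, and Chrnb4, Prkcd, Tcf7l2 and Zic1 were the next largest of the 10. Lhx2, the highest of the list, was at 35.5 and 37.4 FPKM, and Pou4f1, Gbx2, Irx2 and Chrnb3 had no row. Of 12 meningeal genes, 6 were past 1.5-fold on the lower side, the collagens Col1a1 and Col3a1 with Aldh1a2, Slc6a13, Slc22a6 and Foxc1. Col3a1 was at 10.7 FPKM in vehicle rats and 4.35 FPKM in CORT rats, Igf2, the highest of the list, was at 59.0 and 46.3 FPKM, and the list's sum was 197 FPKM in vehicle rats and 148 FPKM in CORT rats. The choroid plexus list, with Ttr at 6605 and 6598 FPKM, had a median log2 ratio of -0.032 and none of 14 genes past 1.5-fold. Among 10 striatal genes, Drd2 was past 1.5-fold higher and Syndig1l lower, each under 3 FPKM in both groups. Ppp1r1b, the highest, was at 69.8 and 68.1 FPKM, and the list's sum was 105 and 107 FPKM. Of 18 hypothalamic genes, 7 had a row and 5 at least 1 FPKM, of which Pomc and Trh were past 1.5-fold lower. Oxt, Sim1 and Otp, which mark the region where stress-related CRH neurons lie, had no row. Avp, of the same list, had a row but was under 1 FPKM in both groups and so was not counted. It was at 0.929 FPKM in vehicle rats and 0.416 FPKM in CORT rats. This was a log2 ratio of -1.16, or -0.45 with a pseudocount of 1 FPKM. In any list, a missing row does not show that a gene was not expressed. Npy and the principal neuron gene Neurod2 had no row either. The part of these tissues in the values of Tac1, Crh and the other peptides was not tested.

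The labelled treatment was checked with 12 genes that glucocorticoids raise in many tissues. Of the 12, 11 were past 1.5-fold higher in the CORT group, where 1.86% of the 12988 genes with at least 1 FPKM were. The list was chosen with earlier results of these data known. The paper itself names Per1, Klf9, Sgk1 and Tsc22d3 as under corticosteroid control from this experiment, so the check is not independent of the data. The folds were 2.47 for Sgk1, 1.93 for Per1, 1.91 for Tsc22d3 and 1.82 for Fkbp5, and Mt2A was the exception, at 70.5 FPKM in vehicle rats and 49.5 FPKM in CORT rats. Of the 9 peptide and CRH genes by their main transcripts, only Crh, at 1.75-fold, was past that fold either way. The share was 5.51% over the 12988 genes. Crh was under the threshold with a pseudocount of 1 FPKM, at a log2 ratio of 0.47, and when centred on the interneuron list, at 0.56.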

How the data were processed

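RNA from whole hippocampi of 8 adrenalectomized rats, 4 per group, was made into stranded libraries by the authors and aligned to rn6, with CASAVA 1.8.2, TopHat2 2.0.10 and Cuffdiff 2.2.0 named in the submitters' processing notes. The deposited FPKM values are the authors' group values per Ensembl transcript, with geometric normalization between libraries, corrections for multiple mapping, sequence bias and effective length, and a minimum alignment count of 10. Fold change, test statistic, p and q columns of the authors' own CuffDiff comparison were not used. Loci are as deposited.

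The log2 ratio of CORT over vehicle FPKM was taken without a pseudocount. A difference of at least 1.5-fold stood in for a call, with no test, and the script was tested on simulated data. In lists, the transcript of highest mean FPKM stood for its gene, and genes under 1 FPKM in both groups were left out of counts and medians. Named genes were all members, and in each list at most 6 of the genes past 1.5-fold, by size of the ratio, and at most 3 of those with the highest level, or the highest per receptor family. Not every gene the rule allows is named. One gene of the striatal list is not reported here. The members and lists were chosen with earlier results of these data known. Alternatives were pseudocounts, FPKM filters, other folds, centring and summed transcripts. Python 3.11.15, numpy 2.4.6, pandas 2.3.3 and matplotlib 3.10.9 were used.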

Additional observations from a re-analysis of the deposited data

How the results depend on the processing

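The median log2 ratio of the 11 rows, 0.27, stayed within 0.1 under both pseudocounts, both FPKM filters and summed transcripts. It did so too when centred on the median of transcripts with at least 1 FPKM in one group. Centred on the median of the interneuron list, a setting added once the data had been seen, it was 0.028. The 3 rows past 1.5-fold became 1, the minor Penk transcript, with a pseudocount of 1 FPKM or at 2-fold. With summed transcripts they became 1, Crh. They became 2 with a pseudocount of 0.1 FPKM (without the minor Tac1 transcript, at -0.58) or centred on the interneuron list (without Crh, at 0.56). At a log2 threshold of 0.32 they became 6. Crh, the one gene past the fold by its main transcript, was thus under it with a pseudocount of 1 FPKM and when centred on that list. The share of all transcripts past the fold, 9.12%, was 4.60% with a pseudocount of 1 FPKM, 5.52% with summed transcripts, 5.38% with at least 1 FPKM in both groups, 3.95% at 2-fold and 20.3% at a log2 threshold of 0.32. With the pseudocount of 1 FPKM the log2 ratio moved by over 0.1 for 3 rows, Crh and the minor transcripts of Penk and Tac1. The sign changed for 1 row, Crhr1, when centred on the interneuron list, and for no row under the other 4 settings.

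Fits without each rat in turn were not run, since each value stands for a whole group. No paired analysis was possible because both value columns hold whole groups. The depth per rat is unknown, and so is how far counting error reaches for transcripts near 1 FPKM, such as Crh and Crhr1.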
